A study of Homo sapiens with 12 samples.

Results

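Levels of 9 early target genes of YAP and of TGF-beta were described in A375 cells, a human melanoma line, out of 26475 entries in the count table. The genes were taken by name: CTGF (now CCN2), CYR61 (now CCN1), ANKRD1, AMOTL2, AJUBA, LATS2, THBS1, TGFBI and SMAD7. All 9 were found and all 9 passed the filter on low counts, which left 15353 genes for testing. Cells had received XL413 and OF1 together at 1 µM each (the combination), XL413 alone at 1 µM, OF1 alone at 1 µM, or the vehicle DMSO, always for 24 h and with 3 libraries per treatment. XL413 inhibits the replication kinase CDC7, and OF1 inhibits the bromodomains of BRPF1, BRPF2 and BRPF3, scaffolds of histone acetyltransferase complexes. The design text names 3 biological replicates per treatment but does not say that they came from separate cultures, and the p-values cover only the spread seen among these libraries, which may be technical.

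YAP and its relative TAZ are coactivators that enter the nucleus when the Hippo kinases are inactive and switch on genes through TEAD factors. Among the best known of these genes are secreted matrix proteins, and others encode regulators of the pathway itself. TGF-beta binds its receptor kinases on the cell surface, which activate SMAD factors that then enter the nucleus. The genes it induces include matrix proteins and SMAD7, a feedback inhibitor of the receptor. In melanoma, YAP and TGF-beta activity are best known from dedifferentiated, invasive states.

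The bases before the transcription start are shown for the genes with several TEAD letters (CTGF, ANKRD1), for a pair of genes that fell with XL413 (AMOTL2, AJUBA) and for the gene that rose with it (TGFBI). The sequences are 250 bases long, 5′ to 3′ on the strand of the gene, from RefSeq on GRCh38.p14. Capitals mark the TEAD motif GGAATG or the SMAD motif GTCTG on either strand (CATTCC and CAGAC on the opposite one). In ANKRD1 the last base of a GTCTG is the first of a GGAATG. The CTGF stretch is chr6:131951373-131951622, minus strand, and that of ANKRD1 is chr10:90921088-90921337, minus strand. For AMOTL2 it is chr3:134374448-134374697, minus strand, before a start inside the gene. For AJUBA it is chr14:22976843-22977092, minus strand, also before a start inside the gene. For TGFBI it is chr5:136028738-136028987, plus strand.
CTGF: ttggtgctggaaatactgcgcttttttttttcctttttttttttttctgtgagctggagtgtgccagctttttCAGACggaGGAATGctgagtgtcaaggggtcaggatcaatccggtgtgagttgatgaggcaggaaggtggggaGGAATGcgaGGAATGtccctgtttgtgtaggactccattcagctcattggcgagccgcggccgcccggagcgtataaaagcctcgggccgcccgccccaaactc
ANKRD1: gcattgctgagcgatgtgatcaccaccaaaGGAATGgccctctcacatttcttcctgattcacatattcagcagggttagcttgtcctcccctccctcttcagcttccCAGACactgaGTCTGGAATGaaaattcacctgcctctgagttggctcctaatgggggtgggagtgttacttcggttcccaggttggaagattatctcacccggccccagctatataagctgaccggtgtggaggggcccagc
AMOTL2: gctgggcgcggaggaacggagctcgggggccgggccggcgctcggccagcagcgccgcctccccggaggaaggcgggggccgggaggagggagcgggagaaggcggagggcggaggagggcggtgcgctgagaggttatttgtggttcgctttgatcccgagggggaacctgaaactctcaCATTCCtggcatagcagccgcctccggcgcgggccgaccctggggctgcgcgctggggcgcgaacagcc
AJUBA: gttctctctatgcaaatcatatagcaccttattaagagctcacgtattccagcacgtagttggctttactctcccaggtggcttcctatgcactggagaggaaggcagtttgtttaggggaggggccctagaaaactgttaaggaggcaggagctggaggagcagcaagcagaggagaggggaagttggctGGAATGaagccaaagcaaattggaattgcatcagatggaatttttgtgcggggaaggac
TGFBI: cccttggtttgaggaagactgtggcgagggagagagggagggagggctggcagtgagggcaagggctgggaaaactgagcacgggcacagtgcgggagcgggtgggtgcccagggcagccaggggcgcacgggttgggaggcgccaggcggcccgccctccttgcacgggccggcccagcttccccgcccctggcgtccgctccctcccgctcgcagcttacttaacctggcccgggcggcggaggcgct
RefSeq windows, from 250 bases before to 50 after a start, were matched for 8 of the 9 genes, 12 windows in all. GGAATG was in 6 of the 12 windows, those of CTGF (3 matches), ANKRD1 (2 matches), LATS2 and THBS1 and 1 of the 2 windows each of AMOTL2 and AJUBA, while 14% of 35116 windows of that length held it. GTCTG was in 9 of the 12, against 45.3% of all windows. TGFBI had neither set of letters in its window, and the 3 windows of SMAD7 had no GGAATG. The AMOTL2 and AJUBA windows at the outermost start, which are not printed, had no GGAATG. These matches describe letters and not sites of binding.

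Set against length, THBS1 stood highest. With levels as CPM (counts scaled to library size) per kilobase of merged exon, it averaged 153 in the combination, 157 in XL413, 157 in OF1 and 165 in DMSO libraries. THBS1 encodes thrombospondin-1, a secreted protein that can release TGF-beta from its latent form. In DMSO libraries the order below it was TGFBI at 74.3, CYR61 at 69.9, AMOTL2 at 42.9, CTGF at 40.1, AJUBA at 20.9, ANKRD1 at 19.8, LATS2 at 5.08 and SMAD7 at 2.59 CPM per kilobase. TGFBI and CYR61 overlapped among the DMSO libraries (70.9 to 76.9 and 68.3 to 72.3), as did AJUBA and ANKRD1 (20.4 to 21.5 and 18.4 to 22.4). The other neighbours in that order did not overlap. In XL413 libraries TGFBI, at 87.1 to 92.2, stood clear of CYR61, at 68.8 to 70.0 CPM per kilobase. All later levels are CPM, not divided by length. Exon lengths are from GENCODE 29 and need not be those of the authors' counting.

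The 12 libraries held 30499559 to 36062138 counts. Of 8 melanoma markers, SOX10 (318 to 386 CPM), MITF (32.8 to 44.4), S100B and SOX9 were present, whereas TYR had no count in any library, and MLANA, DCT and PMEL did not exceed 1.04 CPM. MITF fell in the combination against DMSO (-0.33 ± 0.05, edgeR adjusted p = 0.00173, and -0.31 with combination replicate 1 alone). It was 1 of 5 tested melanoma markers, of which the other 4 did not pass, where 5.07% of all genes fell. Transcripts of skeletal muscle fibres were present too. The summed level of 26 fibre markers was 41.9 to 132 CPM in combination, 175 to 374.6 in XL413, 171 to 387 in OF1 and 119 to 312 CPM in DMSO libraries, with TNNI2 at 0 in the 3 combination libraries. Combination replicates 2 and 3 were lowest, at 41.9 and 61.5 CPM, and stood apart on the first principal component (24.1% of the variance), at -33.4 and -31.5 against -6.99 for combination replicate 1. The summed level of 12 fibroblast markers was 114 to 246 CPM in combination, 339 to 392.2 in XL413, 348 to 393 in OF1 and 309 to 385 CPM in DMSO libraries. In these markers combination replicate 1, at 246 CPM, was the highest of its group but below every library of the other treatments. Calls on the combination against DMSO are therefore also given with combination replicate 1 alone, which narrows but does not remove the fibroblast marker difference. In that fit the single combination library is assumed to vary like those of the other groups, and 3.23% of 15801 tested genes fell against DMSO. In bulk RNA, fewer cells of a type and less RNA per cell cannot be told apart.

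**Figure D1:**
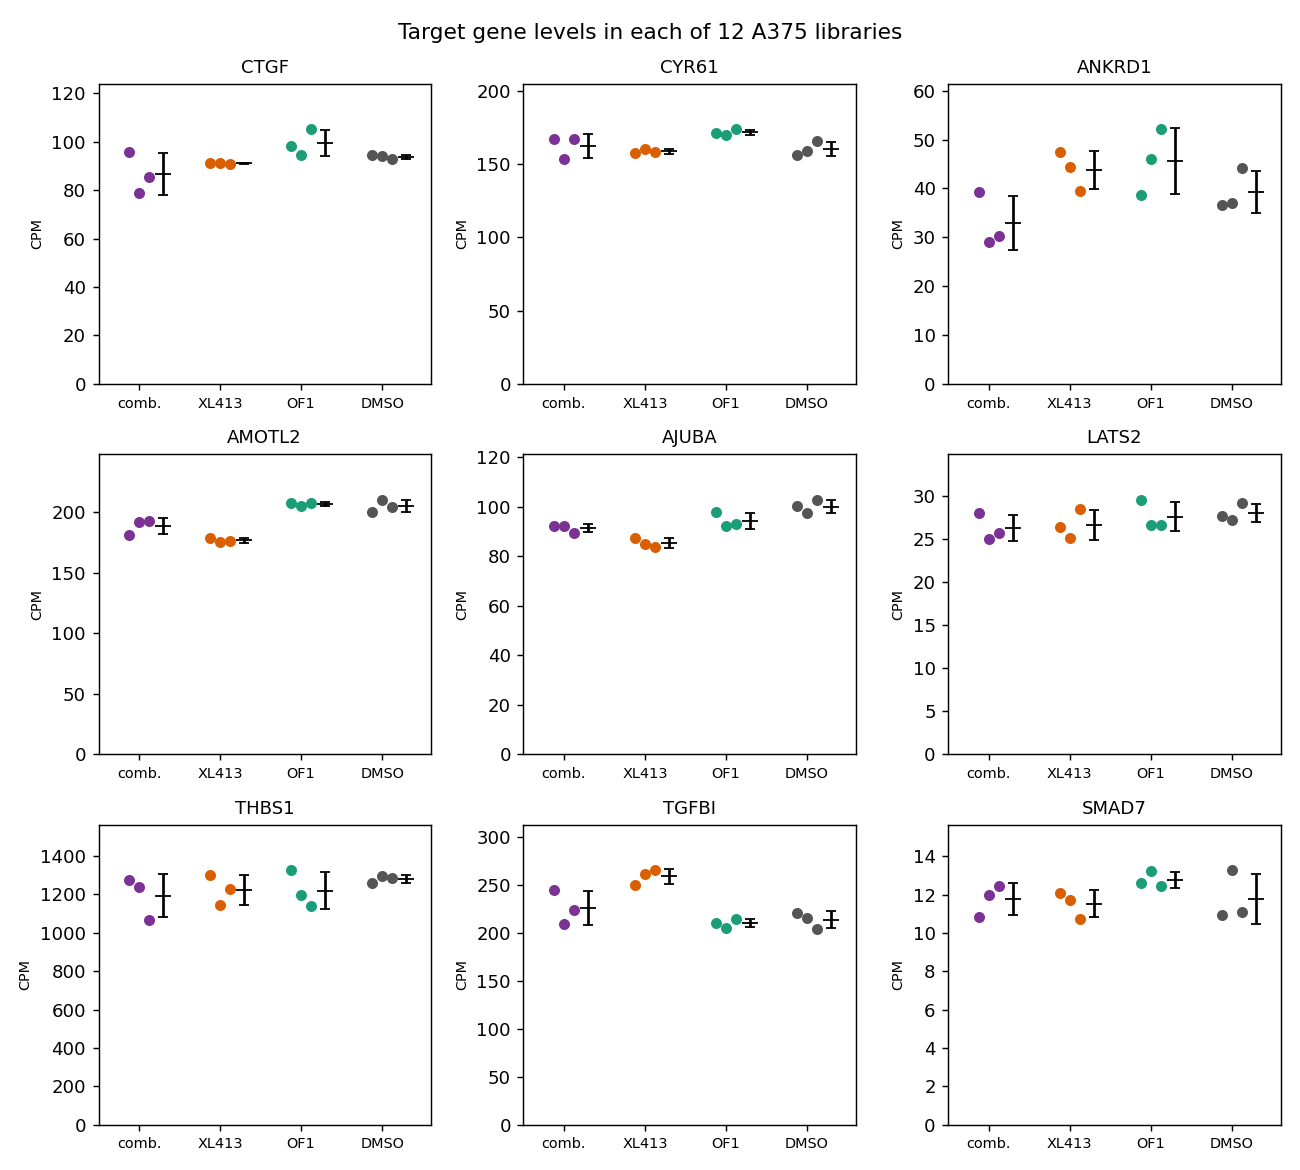
CPM of each of the 9 genes (vertical axes from 0) in the 3 libraries of each treatment; points are libraries in the order of their replicate numbers, and bars are the mean ± SD. TGFBI was highest in the 3 XL413 libraries, AMOTL2 and AJUBA were lowest there, and ANKRD1 spread widely within groups.

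XL413 against DMSO asks what the CDC7 inhibitor did alone. A pair of regulators of the Hippo pathway, AMOTL2 and AJUBA, were lower with XL413, and the matrix gene TGFBI was higher. The secreted YAP targets CTGF and CYR61 did not pass the test. Of the 9 genes 3 passed, where 2.80% of all 15353 genes did. In this comparison 1 of the 9 rose, where 1.26% of all genes did, and 2 fell, where 1.54% did. The median absolute log2 difference was 0.07 over the 9 genes and 0.09 over all genes.

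AMOTL2 (chromosome 3, 134355345 to 134375417) encodes an angiomotin-like protein that binds YAP and holds it outside the nucleus. It was at 179, 175 and 176 CPM in XL413 libraries 1, 2 and 3, against 201, 210 and 204 CPM in DMSO libraries. The 3 XL413 libraries were lowest of all 12. AMOTL2 fell by 0.21 ± 0.03 on the log2 scale (SE), to 0.862 of the DMSO level (edgeR adjusted p = 0.00287).

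AJUBA (chromosome 14, 22971177 to 22982551) encodes a LIM-domain protein that binds the LATS kinases and limits their action on YAP. Its values were 87.4, 84.7 and 83.5 CPM with XL413, against 100.1, 97.3 and 103 CPM with DMSO. Again the 3 XL413 libraries lay below those of every other treatment. The fall was 0.23 ± 0.04 on the log2 scale (edgeR adjusted p = 0.00458). AMOTL2 and AJUBA passed on leaving out any of the 12 libraries and under each of the 8 other settings tried.

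TGFBI (chromosome 5, 136028988 to 136063818) encodes a secreted matrix protein named for its induction by TGF-beta. It had 250.3, 261 and 265 CPM in XL413 libraries, against 221, 216 and 204 CPM in DMSO libraries. The XL413 libraries were the 3 highest of the 12. TGFBI rose 1.21-fold (log2 change 0.28 ± 0.05, edgeR adjusted p = 0.00925). The call was lost without DMSO replicate 3 (log2 change 0.24, edgeR adjusted p = 0.0623), XL413 replicate 2 (0.27, adjusted p = 0.0579) or XL413 replicate 3 (0.26, adjusted p = 0.0601).

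The remaining genes did not pass with XL413. CTGF, a secreted CCN-family matrix protein (chromosome 6, 131948176 to 131951372), was at 91.2, 91.2 and 90.9 CPM with XL413, against 94.5, 94.0 and 92.8 CPM with DMSO. The groups did not overlap, yet the difference of -0.04 had a 95% interval of -0.16 to 0.08 (log2) and an edgeR adjusted p = 0.742. RefSeq places the antisense RNA CCN2-AS1 across CTGF, and the labels do not say whether reads were assigned by strand. CYR61, the CCN-family relative of CTGF (chromosome 1, 85580761 to 85583950), had a difference of -0.01 with an interval of -0.09 to 0.07. LATS2, the kinase that phosphorylates YAP (chromosome 13, 20973036 to 21061586), THBS1 (chromosome 15, 39581079 to 39599466) and SMAD7 (chromosome 18, 48919853 to 48950965) had log2 differences of -0.07, -0.07 and -0.03 and did not pass. LATS2 was at 25.1 to 28.4 CPM with XL413 and 27.2 to 29.1 CPM with DMSO, and the groups overlapped. THBS1 was at 1299, 1143 and 1227 CPM with XL413, against 1258, 1297 and 1284 CPM with DMSO, so that XL413 replicate 1 was above every DMSO library and the other two were below. In XL413 libraries 4 of the 9 genes did not overlap with DMSO, where 27.8% of all genes did not.

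OF1 against DMSO asks what the bromodomain inhibitor did alone. None of the 9 genes passed with edgeR, where 1.15% of all genes did (0.580% rose and 0.567% fell), and none passed with DESeq2. Before adjustment p was under 0.05 for CYR61 and AJUBA, as it was for 2209 of the 15353 genes. CYR61 was at 171, 169.9 and 173 CPM with OF1, against 156, 159 and 166 CPM with DMSO. Its OF1 libraries lay above those of every other treatment. The log2 difference was 0.10 ± 0.04, with a 95% interval of 0.02 to 0.18 and an edgeR adjusted p = 0.228. CTGF was also higher in each OF1 library (98.3, 94.6 and 105 CPM) than in any DMSO library, with an interval of -0.04 to 0.20. These 2 genes did not overlap between OF1 and DMSO, where 22.0% of all genes did not.

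SMAD7, the feedback inhibitor of TGF-beta signalling, was at 12.6, 13.2 and 12.5 CPM with OF1, against 10.9, 13.3 and 11.1 CPM with DMSO. DMSO replicate 2 was as high as the OF1 libraries, and the groups overlapped. Its log2 difference of 0.12 had a 95% interval of -0.06 to 0.29. The narrowest interval with OF1 was that of AMOTL2, from -0.06 to 0.08 on the log2 scale.

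**Figure D2:**
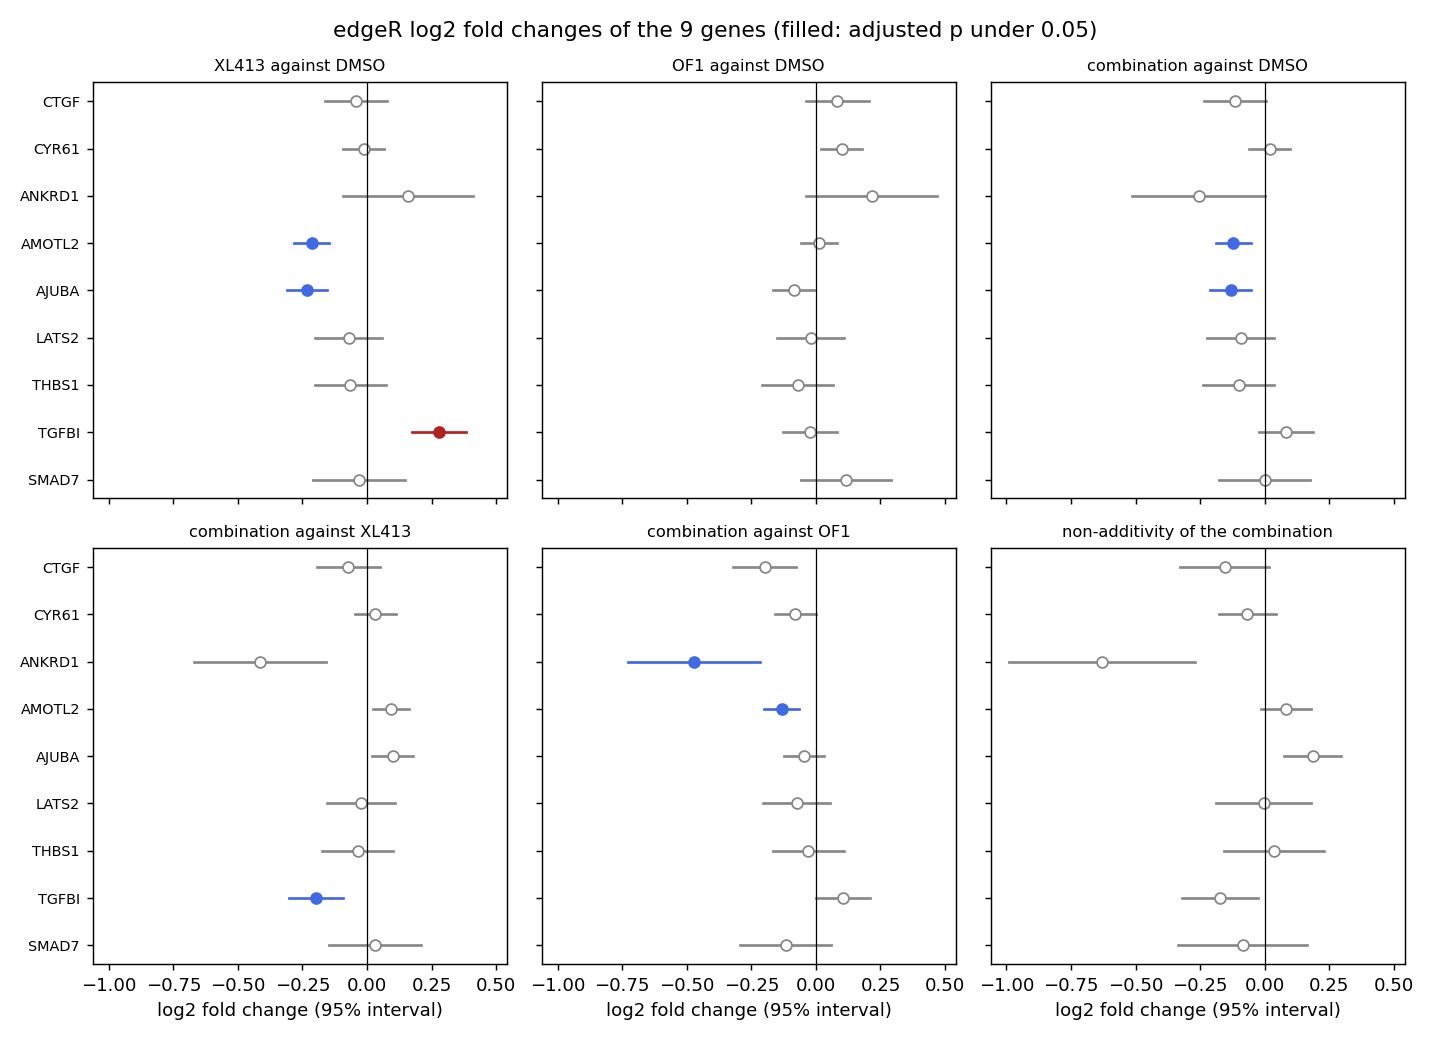
edgeR log2 fold changes (horizontal axes) with 95% intervals for the 9 genes in 6 comparisons; blue and red points passed at an adjusted p under 0.05, and open grey points did not. Only AMOTL2, AJUBA, TGFBI and ANKRD1 passed in any of these comparisons, and the intervals of ANKRD1 were the widest.

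The combination against DMSO asks what both inhibitors did together. AMOTL2 and AJUBA were again lower. TGFBI, which passed with XL413 alone, did not pass here. Of the 9 genes 2 fell and none rose, where 5.07% of all genes fell and 5.65% rose (10.7% passed). AMOTL2 and AJUBA were also the 2 genes whose libraries did not overlap with DMSO, where 27.6% of all genes did not.

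AMOTL2 was at 181, 192 and 192 CPM in the combination, against 201, 210 and 204 CPM in DMSO. The groups did not overlap. It fell by 0.12 ± 0.03 on the log2 scale (edgeR adjusted p = 0.0268), and by 0.18 with combination replicate 1 alone. AJUBA was at 92.3, 92.1 and 89.3 CPM, against 100.1, 97.3 and 103 CPM in DMSO, and fell by 0.13 ± 0.04 (edgeR adjusted p = 0.0318). With combination replicate 1 alone the AJUBA difference was -0.11 and did not pass (edgeR adjusted p = 0.223). With the muscle score (mean log2 CPM of the 26 fibre markers) as a covariate, AMOTL2 and AJUBA had differences of -0.14 and -0.13 and did not pass (edgeR adjusted p = 0.14 and 0.249). The covariate left 319 of all genes passing in this comparison, against 1645 without it. The score was -0.562 to 1.12 in combination, 1.59 to 2.99 in XL413, 1.78 to 2.98 in OF1 and 1.06 to 2.67 in DMSO libraries. It did not overlap between the combination and either inhibitor alone. In those comparisons the covariate and the treatment cannot be told apart. AMOTL2 also lost its call without DMSO replicate 2 or 3, and AJUBA without any 1 DMSO library or combination replicate 2 or 3.

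TGFBI was at 245, 209 and 224 CPM in the combination, against 221, 216 and 204 CPM in DMSO. Combination replicates 1 and 3 were above every DMSO library and replicate 2 was not, so the groups overlapped. The log2 difference was 0.08 ± 0.05 with an interval of -0.02 to 0.19. With combination replicate 1 alone it was 0.20, from a single library without a spread of its own. CTGF was at 95.9 CPM in combination replicate 1 and 78.8 and 85.3 CPM in replicates 2 and 3, against 92.8 to 94.5 CPM in DMSO. Replicate 1 was above every DMSO library and the other two were below. Its log2 difference was -0.11 with all 3 libraries (edgeR adjusted p = 0.222), -0.20 without replicate 1 (edgeR adjusted p = 0.0114) and 0.03 with replicate 1 alone. ANKRD1 is described further on. CYR61, LATS2, THBS1 and SMAD7 had log2 differences of 0.02, -0.09, -0.10 and 0.00 and did not pass, nor did they with combination replicate 1 alone. These comparisons share the DMSO libraries, so their values are not independent of each other.

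Adding OF1 to XL413 (the combination against XL413) left TGFBI lower, by 0.20 ± 0.05 on the log2 scale (edgeR adjusted p = 0.0392), as the single gene of the 9 that passed. Of all genes 3.41% passed, 1.06% risen and 2.35% fallen. Combination libraries of TGFBI (209 to 245 CPM) lay below those of XL413 (250.3 to 265 CPM). With combination replicate 1 alone the difference was -0.08 (edgeR adjusted p = 0.417), with the muscle score as covariate -0.18 (edgeR adjusted p = 0.826), and with upper-quartile factors it missed the threshold at an edgeR adjusted p = 0.0501. The call held on leaving out 5 of the 12 libraries in turn and was lost without DMSO replicate 2, OF1 replicate 2, any 1 XL413 library, or combination replicate 2 or 3. AMOTL2 and AJUBA were higher in each combination library than in any XL413 library, with log2 differences of 0.09 ± 0.03 and 0.10 ± 0.04 that did not pass (edgeR adjusted p = 0.144 and 0.177). With TGFBI and ANKRD1 they made 4 genes of the 9 without overlap, where 19.4% of all genes had none.

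Adding XL413 to OF1 (the combination against OF1) left AMOTL2 and ANKRD1 lower, where 5.50% of all genes passed, 2.79% risen and 2.71% fallen. AMOTL2 and CYR61 were the 2 genes without overlap, where 22.5% of all genes had none. AMOTL2 had 181 to 192 CPM in the combination and 205 to 208 CPM in OF1, with no overlap, and fell by 0.13 ± 0.03 on the log2 scale (edgeR adjusted p = 0.0304). It fell short with combination replicate 1 alone, at -0.19 (edgeR adjusted p = 0.0676), with the muscle score as covariate, at -0.16 (edgeR adjusted p = 0.609), and without combination replicate 2 or any 1 OF1 library. CTGF was at 78.8 to 95.9 CPM in the combination and 94.6 to 105 CPM in OF1, a log2 difference of -0.20 ± 0.06 (edgeR adjusted p = 0.0561). CTGF passed with DESeq2 (adjusted p = 0.023). Its difference was -0.05 with combination replicate 1 alone, and -0.08 with the muscle score as covariate (edgeR adjusted p = 0.891). TGFBI, which XL413 raised without OF1, had a log2 difference of 0.10 ± 0.05 here (edgeR adjusted p = 0.224).

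For every gene the log2 change in the combination was tested against both single changes added together. No gene of 15353 passed with edgeR, although 1566 had an unadjusted p under 0.05, and DESeq2 called 109, none of the 9 among them. ANKRD1 (-0.63 ± 0.17), AJUBA (0.19 ± 0.05) and TGFBI (-0.17 ± 0.07) had an unadjusted p under 0.05, with edgeR adjusted p = 0.164, 0.178 and 0.381. Thus the XL413 changes of TGFBI with and without OF1 (0.10 and 0.28) were not shown to differ. Without combination replicate 1, ANKRD1 and TGFBI passed (-0.78 and -0.24, edgeR adjusted p = 0.0134 and 0.0405).

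ANKRD1 (chromosome 10, 90912096 to 90921087) encodes an ankyrin repeat protein that is both a YAP target and a protein of striated muscle. Its values were 39.3, 29.1 and 30.3 CPM in combination libraries 1, 2 and 3, and 47.4, 44.5 and 39.6 CPM in XL413. In OF1 they were 38.6, 46.1 and 52.1 CPM, and in DMSO 36.5, 37.0 and 44.3 CPM. The combination fell by 0.47 ± 0.12 against OF1 (edgeR adjusted p = 0.0358), with combination replicate 1 above 1 OF1 library. That call was lost without DMSO replicate 2, OF1 replicate 2 or 3, XL413 replicate 2, or combination replicate 2 or 3. Against XL413 the difference was -0.41 ± 0.12, with no overlap (edgeR adjusted p = 0.0759), and -0.15 with combination replicate 1 alone. Against DMSO it was -0.26 ± 0.12 (edgeR adjusted p = 0.202), -0.41 without combination replicate 1 (edgeR adjusted p = 0.0288) and 0.00 with that library alone. With XL413 or OF1 alone the log2 differences from DMSO were 0.16 ± 0.12 and 0.22 ± 0.12 and did not pass.

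Muscle fibre markers moved with ANKRD1 from library to library. Their sums in the same order were 132, 41.9 and 61.5 CPM in the combination, 374.6, 274 and 175 in XL413, 171, 347 and 387 in OF1, and 119, 168 and 312 CPM in DMSO. In all 4 groups the 3 libraries had the same order by ANKRD1 as by fibre markers. Of 15327 tested genes other than the markers 40 (0.261%) had that order in all 4 groups, and among the other 8 genes described here none had it in more than 1 group. With combination replicate 1 alone the ANKRD1 difference between combination and OF1 was -0.21. With the muscle score as covariate it was 0.05 (edgeR adjusted p = 0.94). The score did not overlap between these groups, so the covariate and the treatment cannot be told apart here. Of all genes 9 passed with the covariate in this comparison, against 845 without it. The XL413 changes of AMOTL2, AJUBA and TGFBI were -0.21, -0.23 and 0.27 with that covariate and passed (edgeR adjusted p = 0.0109, 0.0129 and 0.0218).

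**Figure D3:**
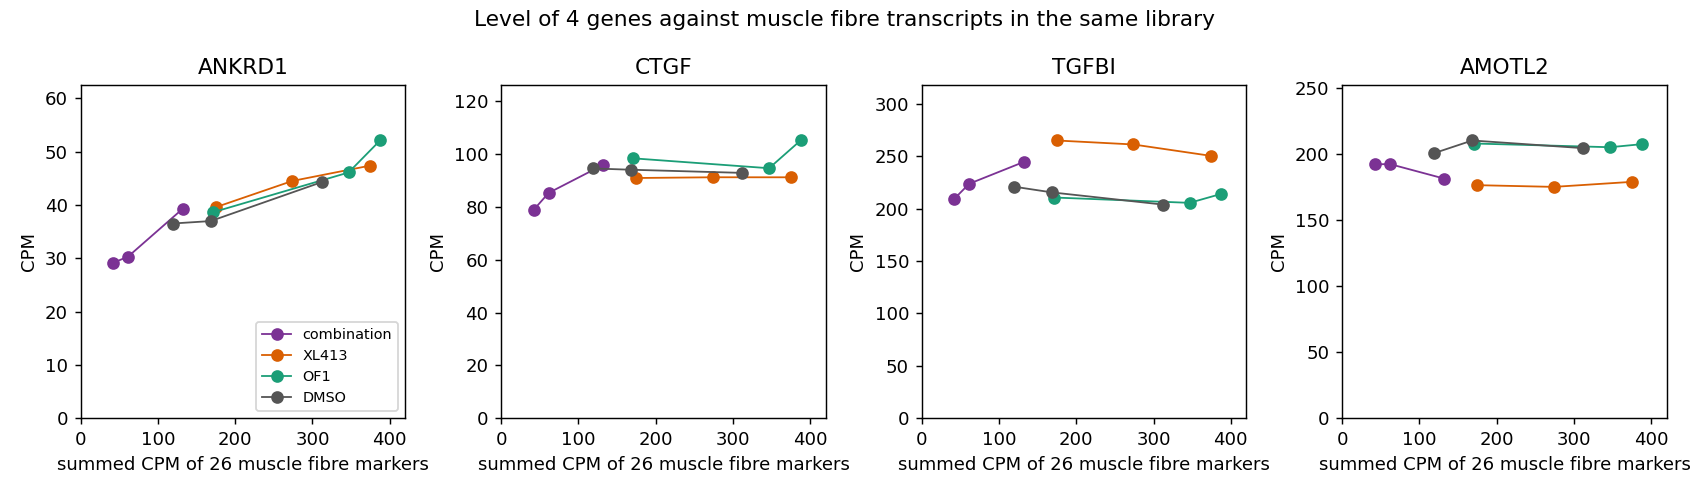
CPM of ANKRD1, CTGF, TGFBI and AMOTL2 (vertical axes from 0) against the summed CPM of 26 muscle fibre markers in the same library (horizontal axes); lines join the 3 libraries of a treatment. ANKRD1 climbs with the marker sum in every treatment, from 29.1 to 52.1 CPM over the 12 libraries, whereas TGFBI in XL413 and AMOTL2 in XL413 keep their place above or below the rest.

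The 9 genes did not vary as a block over the 12 libraries. Among their 36 pairs the median Pearson correlation of log2 CPM was 0.149, with 25 pairs positive and 11 negative. The points share treatments, so these correlations are descriptions. The most alike pair was AMOTL2 and AJUBA (r = 0.806, Spearman 0.727), and the most opposed was AMOTL2 and TGFBI (r = -0.912, Spearman -0.713). Around the group means the order differed. CTGF and TGFBI then had r = 0.849, against -0.0706 with the treatments left in, and AMOTL2 and AJUBA had r = -0.163. CTGF had a coefficient of variation (SD over mean) of 9.99% in the combination, 5.36% in OF1, 0.917% in DMSO and 0.173% in XL413. That of TGFBI was highest in the combination (7.89%) and lowest in OF1 (2.03%). The value of 0.849 thus rests mostly on combination libraries.

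Among genes whose mean log2 CPM reached 1, clone, LOC and LINC names left out, the nearest patterns to CTGF were those of NR4A2, GLUL and DAAM2 (r = 0.916, 0.915 and 0.901 over 12 libraries). Nearest to CYR61 were SELT, ING2 and KCNG1 (0.909, 0.888 and 0.884), and to THBS1 TTPAL, ASAP1 and TSPAN14 (0.954, 0.93 and 0.925). Among the nearest to TGFBI were PTX3 and the chemokine gene CCL2 (0.926 and 0.903), and nearest to SMAD7 were PIGQ, SMAP1 and ERBB3 (0.866, 0.821 and 0.807). These were picked as the highest among 12125 ranked genes.

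Genes of both pathways were set against the shares over all genes: 5.07% fell and 5.65% rose in the combination against DMSO, 1.54% and 1.26% in XL413, and 0.567% and 0.580% in OF1. A list with 1 gene passed is not read as standing apart from these shares. The coactivators themselves did not pass in any comparison. WWTR1, which encodes TAZ, averaged 429 CPM in the combination, 446 in XL413, 460 in OF1 and 447 in DMSO, and YAP1 averaged 126, 130, 130 and 128 CPM in that order. Of 8 tested coactivators and TEAD factors 1 fell in the combination, the factor gene TEAD4 (-0.15 ± 0.04, edgeR adjusted p = 0.0368, and 0.108 with combination replicate 1 alone), and none passed with XL413 or OF1. Of 19 genes of the Hippo kinase cascade and its upstream regulators 3 fell in the combination and 16 did not pass (median -0.04, against -0.0018 over all genes). They were NF2 (-0.26 ± 0.04), which encodes merlin, WWC1 (-0.29 ± 0.05), which encodes the scaffold KIBRA, and SAV1 (-0.16 ± 0.04), a partner of the Hippo kinases. None of the 19 passed with combination replicate 1 alone (median 0.04), NF2 being at -0.22 and WWC1 at -0.27. WWC1 also fell with OF1 (-0.28 ± 0.05, edgeR adjusted p = 0.0219), and no gene of the cascade passed with XL413 (median -0.07).

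Of 20 other YAP and TEAD targets, AXL and CRIM1 fell and BIRC5 rose with XL413, and 17 did not pass (median -0.02). AXL, a receptor kinase, averaged 365 ± 18 CPM in XL413 and 473 ± 8.5 CPM in DMSO (SD, n = 3 each). BIRC5, which encodes survivin, is also a gene of dividing cells. In the combination 6 fell, 1 rose and 13 did not pass (median -0.17). The largest falls were those of ANKRD2 (-0.71 ± 0.17), CCDC80 (-0.61 ± 0.13) and FJX1 (-0.38 ± 0.10), and BIRC5 rose (0.24 ± 0.03). ANKRD2, a relative of ANKRD1, is also a muscle gene. With combination replicate 1 alone 3 of these 7 calls held, those of AXL (-0.29), CRIM1 (-0.30) and BIRC5 (0.19), and CCDC80 was at -0.17. With OF1, IGFBP3 rose (0.28 ± 0.05) and ANKRD2 fell (-0.82 ± 0.17).

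Among TGF-beta pathway genes TGFB1 itself was lower in the combination. Of 15 ligands and latency proteins 2 fell in the combination against DMSO, TGFB1 (-0.32 ± 0.06) and LTBP1 (-0.43 ± 0.13), and 13 did not pass (median -0.09). With combination replicate 1 alone TGFB1 was at -0.31 and LTBP1 at -0.08. TGFB1 was at 60.8 CPM in the combination, 78.2 in XL413, 68.3 in OF1 and 75.9 CPM in DMSO. Against XL413, TGFB1, LTBP1, LTBP2 and LTBP3 fell in the combination, by 0.36 ± 0.06, 0.52 ± 0.13, 0.45 ± 0.08 and 0.19 ± 0.04. These were 4 of the 15, where 2.35% of all genes fell in that comparison. With combination replicate 1 alone the 4 differences were -0.36, -0.17, -0.29 and -0.22. Of 16 receptors and SMADs the coreceptor gene ENG fell in the combination (-0.19 ± 0.04, and -0.25 with combination replicate 1 alone, which passed), and none passed with XL413 or OF1 alone. Of 9 feedback inhibitors TGIF2 fell in the combination (-0.22 ± 0.05, and the same size without a call with combination replicate 1 alone). PMEPA1, which blocks SMAD activation, rose with OF1 alone (0.26 ± 0.03, edgeR adjusted p = 0.00114). It averaged 91.5 CPM in OF1 and 76.2 in DMSO, but 77.1 in the combination and 71.0 CPM in XL413. PMEPA1 was the 1 of the 9 that fell in the combination against OF1, where 2.71% of all genes fell.

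Of 20 other TGF-beta targets 5 fell and 15 did not pass in the combination against DMSO (median -0.08). COL1A1 (-1.47 ± 0.23), COL1A2 (-1.39 ± 0.28) and FN1 (-0.80 ± 0.23) had the largest falls, and BHLHE40 and ID3 fell by 0.26 ± 0.06 and 0.20 ± 0.05. With combination replicate 1 alone COL1A1 (-0.81), COL1A2 (-0.59) and ID3 (-0.28) passed, and FN1 (-0.16) and BHLHE40 (-0.26) did not. COL1A1 and COL1A2 also stand in the list of 12 fibroblast markers, whose summed level was 114 to 246 CPM in the combination and 309 to 385 CPM in DMSO. The 246 CPM is that of combination replicate 1, so the fit with that library alone keeps a difference in these markers. The part of fibroblast transcripts in these falls was not tested. With XL413, BGN (0.24 ± 0.05) and IGFBP7 (0.32 ± 0.07) rose beside TGFBI, and 18 of the 20 did not pass (median 0.09). None of the 20 passed with OF1 alone (median 0.09).

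**Figure D4:**
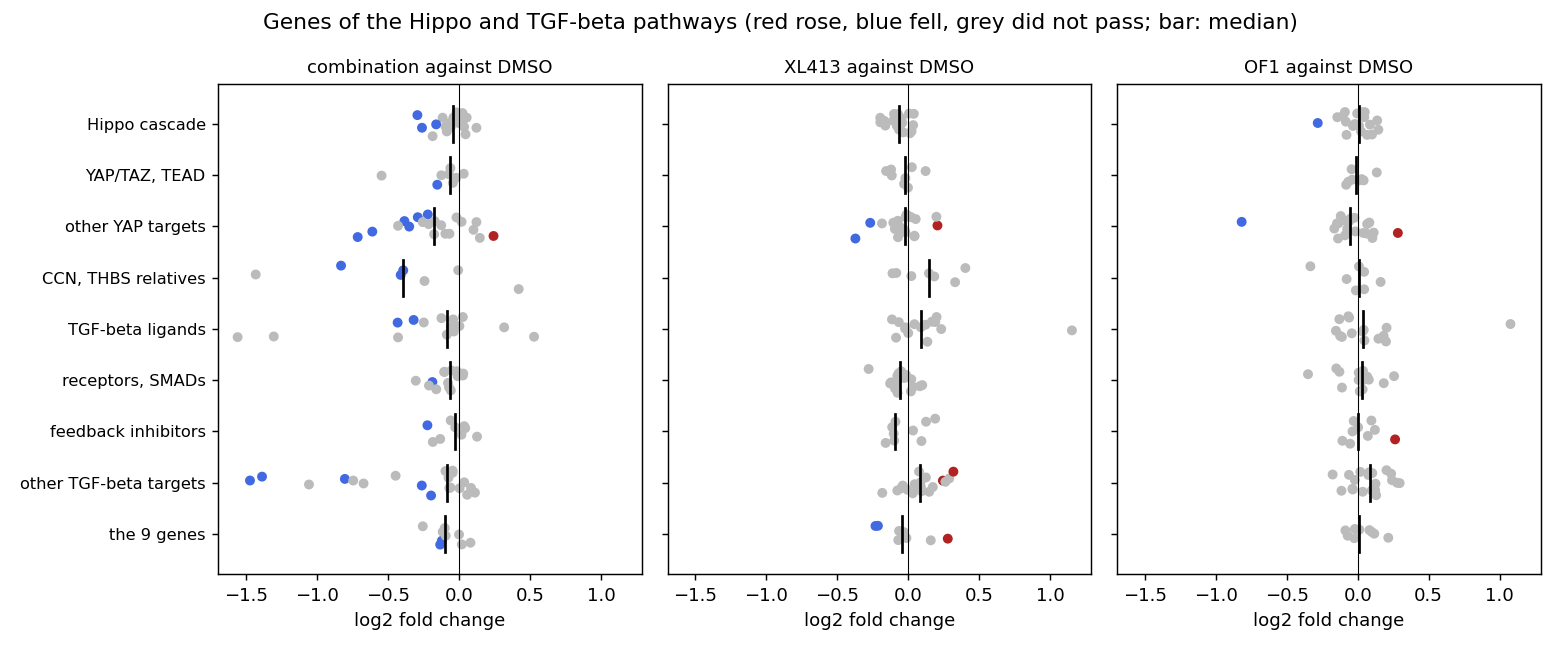
edgeR log2 fold changes (horizontal axes) of genes in 8 pathway lists and of the 9 genes, for the combination, XL413 and OF1 against DMSO; each point is a gene, red rose, blue fell and grey did not pass, and the black bar is the list median. Most points lie near 0, and the largest falls that passed are those of COL1A1 and COL1A2 in the combination.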

How the data were processed

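The data are gene-level RNA-seq of A375 cells in 12 libraries, 3 per treatment. Libraries were strand-specific (dUTP) and made from oligo-dT purified mRNA, per the labels' protocols. The values are RSEM expected counts, as the authors deposited them, 1 row per gene symbol and unscaled. Per the submitters' processing notes, the tools were RSEM 1.2.15 and Bowtie2 2.1.0 and the build was hg38. No annotation or strand setting for the counting is stated. Since 10.6% of the values were not whole, all were rounded.

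edgeR 4.0.16 in R 4.3.3 was used with filterByExpr, TMM factors, 1 mean per group over all 12 libraries (8 residual degrees of freedom) and quasi-likelihood F tests, adjusted by Benjamini-Hochberg over 15353 genes with a threshold of 0.05, for 6 comparisons. Each SE was taken as |log2 change| over the root of F, and 95% intervals use the t distribution. CPM is scaled by TMM library size. Alternatives were DESeq2 1.42.0, other factors and filters, a replicate block, a muscle score covariate and leaving out libraries. The fit was tested on simulated data. Replicates within groups differed beyond counting noise (chi-square per degree of freedom from 2.33 to 14.0).

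The members and lists were chosen with earlier results of these data known. All 9 members are named in every comparison, with at most 3 risen and 3 fallen genes per pathway list, and all where 5 or fewer passed. Likeness of patterns was ranked by Pearson correlation of log2 CPM (prior count 2), and 1 gene near TGFBI is not reported here. Positions and promoters are from RefSeq GRCh38.p14, matched by current symbol or synonym. The name hg38 denotes GRCh38, and no patch release is stated for the counting.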

Additional observations from a re-analysis of the deposited data

How the results depend on the processing

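Of 1080 log2 changes recomputed for the 9 genes under 20 other settings, 1029 stayed on their side of the threshold, 36 lost a call, 14 gained one and 1 reversed. The reversed one was ANKRD1 in the combination against OF1, at 0.0508 with the muscle score as covariate. The sign changed in 56 values, 1 of them a called value. Other scalings moved the median of all genes by at most 0.00979 (upper-quartile factors).

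For the combination against XL413 the number of the 9 genes that passed was 1 as reported, 0 with upper-quartile factors, the muscle score or combination replicate 1 alone, and 2 with no filter; all genes passing numbered 524 as reported, 33 with the muscle score and 155 with replicate 1 alone. For the combination against OF1 it was 2 as reported, 3 with DESeq2, no filter or the block, and 0 with the muscle score or combination replicate 1 alone, where all genes passing numbered 9 and 53, against 845 as reported. For the combination against DMSO it was 2 as reported and 0 with the muscle score (319 of all genes, against 1645). For non-additivity it was 0, and 1 with no filter (ANKRD1). With no filter all genes passing numbered 641 for the combination against XL413, 1019 against OF1 and 132 for non-additivity. For the combination against OF1 they numbered 1020 with DESeq2 and 850 with the block. The cause was not tested. Leaving out 1 library gave 2 to 3 of the 9 genes for XL413 against DMSO and 0 to 0 for OF1 against DMSO. For the combination it gave 0 to 4 against DMSO, 0 to 3 against XL413 and 0 to 3 against OF1, and for non-additivity 0 to 2. All genes passing numbered, in that order, 86 to 722, 42 to 388, 728 to 2113, 168 to 828, 212 to 2227 and 0 to 362.

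Replicate numbers did not pair the samples: same-numbered libraries of different groups had correlations of -0.161 to 0.199 in their deviations from group means, over 0.1 in 1 of 18. With a replicate block 361 genes passed for XL413 against DMSO, against 430 as reported, and 126 for OF1, against 176. The numbers of the 9 genes were 3, 0, 2, 1, 3 and 0 in the 6 comparisons, with CTGF gained in the combination against OF1 (edgeR adjusted p = 0.0478). Over all genes DESeq2 called 641 for XL413 and 357 for OF1 against DMSO.

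SMAD7 had the fewest counts of the 9 genes, 349 to 452 per library.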

Other observations

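Some genes of a list of CCN and thrombospondin relatives, to which POSTN was added, fell in the combination. Of 7 tested genes of this list NOV (now CCN3), POSTN and THBS2 fell against DMSO, by 0.41 ± 0.07, 0.83 ± 0.20 and 0.39 ± 0.12 on the log2 scale. The other 4 did not pass (median -0.39 over the 7), where 5.07% of all genes fell. With combination replicate 1 alone NOV passed (-0.39), and POSTN (-0.62) and THBS2 (-0.39) did not. NOV averaged 11.4 CPM in the combination, 14.2 in XL413, 15.6 in OF1 and 15.1 CPM in DMSO. POSTN belongs to neither the CCN nor the thrombospondin family and is also in the list of fibroblast markers. None of the 7 passed with XL413 or OF1 alone.

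Immediate early genes, several of which respond to the same stimuli as CTGF and CYR61, mostly did not pass. Of 14 tested, MYC fell with XL413 (-0.26 ± 0.06) and none passed with OF1. In the combination IER3 rose (0.22 ± 0.05), and JUN (-0.18 ± 0.05) and MYC (-0.20 ± 0.06) fell, where 5.65% of all genes rose and 5.07% fell. Of these 3, JUN passed with combination replicate 1 alone (-0.27). Their summed level was 622 to 669 CPM in combination, 633 to 664 in XL413, 631 to 671 in OF1 and 641 to 650.1 CPM in DMSO libraries.

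Of 8 muscle progenitor markers 2 fell in the combination against DMSO, CDH15 and MYF6, where 5.07% of all genes fell. Neither of them passed with combination replicate 1 alone, and none of the 8 passed with XL413 or OF1 alone.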
